A study of Mus musculus with 15 samples.

Results

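Mouse pro-B cells that overexpress Bcl2 were compared with and without the label Bcl11a-deficient, over all genes the array detected. The 6 arrays were taken by their labels from 15 in the series, 12 of them from pro-B cells. The 3 labelled deficient arrays are labelled Bcl2-rescued Bcl11a-deficient by genotype, with the title Bcl2+OHT. The 3 control arrays are from Bcl2 overexpression wild type pro-B cells, with the title Bcl2-OHT. All 6 come from bone marrow of mice aged 6 to 8 weeks on a mixed C57BL/6 and 129S5 background, grown for 10 days with IL-7, Flt3L and SCF at 50 ng/ml each. The labels do not spell out OHT. It is marked + in the titles of both labelled deficient groups of the series and of neither control group, so what OHT stands for and the deficiency cannot be told apart. The labels do not say how Bcl2 was added, which part of Bcl11a was removed or how many mice each culture came from.

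Pro-B cells are the earliest committed precursors of B cells. They divide in response to IL-7 while they rearrange the heavy chain genes of the antibody. Bcl11a is a zinc finger transcription factor that B cell development requires, and Bcl2 protects cells by blocking the mitochondrial route to cell death. The comparison asks what differs between labelled deficient and control pro-B cells when both carry added Bcl2.

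Each of the 6 arrays detected 14946 to 16422 of 45263 probes. Levels are normalised log2 intensities, and a difference is the labelled deficient mean minus the control mean on that scale, with its standard error (SE). Values of single arrays are listed in the order replicate 1, 2 and 3, the labelled deficient arrays before the controls. Arrays of a group correlated at 0.987 to 0.992 and arrays of different groups at 0.939 to 0.949. In bulk RNA, fewer cells of a type and less RNA per cell cannot be told apart. The spread behind every test is shared with the 6 arrays without added Bcl2, among them a dim one, control replicate 3, with a mean signal of 187 and 11473 detected probes against 445 to 703 on the 6 arrays compared. Replicate 1 of both groups lay on slide 1 and replicates 2 and 3 on slide 2.

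Bcl11a itself was lower on the labelled deficient arrays. Its brightest probe (ILMN_2712044) read 9.87, 10.26 and 10.30 against 10.84, 11.02 and 10.95, and the groups did not overlap. The difference was -0.79 ± 0.20 (adjusted p = 0.0123), a fall to a level still well above background. Another detected probe (ILMN_1257463) read 10.10, 9.99 and 10.21 against 10.81, 10.96 and 11.28, a difference of -0.92 ± 0.44 that did not pass over all kept probes (adjusted p = 0.175). A further probe (ILMN_1234185) was below background on all 12 pro-B arrays. The call was lost in 5 alternatives, among them without labelled deficient replicate 1 (-0.65, adjusted p = 0.0608). Within slide 1 the difference was -0.97 (adjusted p = 0.105). Without added Bcl2 the brightest probe was higher, not lower, on the labelled deficient arrays (1.87 ± 0.20), which goes against their label, while the other detected probe gave -0.25 ± 0.44 and did not pass (adjusted p = 0.875). The probes thus disagreed there, and every direction is given relative to the label. Bcl11b, the relative that acts in T cells, was not well above background with any of its 4 probes. The brightest probe of mouse Bcl2 read 7.88, 7.68 and 7.64 against 8.09, 8.04 and 6.92, a difference of 0.05 ± 0.40 (adjusted p = 0.948) with overlapping groups. The labels do not say whether the added Bcl2 carries the sequence of this probe.

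Of 9687 genes tested, 2426 passed at an adjusted p under 0.05, which is 25% of them, and 3456 had an unadjusted p under 0.05. The 1237 higher genes made up 12.8% and the 1189 lower genes 12.3%. The falls were larger: 630 genes fell and 606 rose by more than 1, 181 fell and 106 rose by more than 2, and 63 fell and 25 rose by more than 3 on the log2 scale. The median difference over all genes was 0.04. Of the 2426 genes, 2417 had arrays that did not overlap between the groups, against 53.2% of all genes tested (28.3% higher and 24.8% lower). In all, 116 of the passing genes were below background on the 3 control arrays only and 73 on the 3 labelled deficient arrays only. Their fold is a bound, written "at least". The count was 1004 with median scaling in place of quantile normalisation, with 629 of them (62.6%) higher, and 649 with the deposited scores, with 590 (90.9%) higher. It was 4066 without control replicate 3 of the arrays without added Bcl2. With the slide as a block it was 2734, and within slide 2 it was 2755. Within slide 1, with 1 array per group, it was 528, of which 185 were higher.

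The largest falls were in genes of cell division. Sapcd2, which helps to orient the spindle, read 6.65, 7.01 and 6.35 against 11.02, 10.99 and 11.00 and fell by 4.34 ± 0.24 (adjusted p = 3.12e-07). Pclaf, which binds the sliding clamp of the replication fork, read 7.23, 6.83 and 7.38 against 11.48, 11.16 and 11.41 and fell by 4.20 ± 0.29. Sgo1, the guardian of cohesion at the centromere, read 5.61, 6.38 and 6.55 against 10.37, 10.59 and 10.15 and fell by 4.19 ± 0.24. All labelled deficient arrays lay far below every control array for these genes. The other 12 of the 15 largest falls ran from -4.11 ± 0.16 for Kif2c to -3.84 ± 0.16 for Pif1. Oip5, part of the machinery that deposits centromeric histone, was not well above background on the labelled deficient arrays (5.33, 5.31 and 5.65 against 9.47, 9.46 and 9.20) and was at least 12.8-fold lower (adjusted p = 2.62e-07). Between them came the mitotic kinase Pbk, the CDK phosphatase Cdkn3, the spindle motors Kif11 and Kif15, the replication factor Mcm10, the thymidylate enzymes Tyms and Tk1, the cell division gene Cdca3 and, outside cell division, the adult beta globin Hbb-bt. For Tyms another probe gave -2.96 and passed, and the remaining probes gave -0.69 and -0.37 and did not.

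The largest rises were of several kinds. Sln, which encodes sarcolipin, a small regulator of the calcium pump, read 11.70, 12.16 and 13.07 against 6.93, 8.52 and 8.35 and rose by 4.38 ± 0.42 (adjusted p = 2.11e-05). Espn, an actin bundling protein, was not well above background on the control arrays (9.23, 8.96 and 9.95 against 5.17, 5.37 and 5.41) and was at least 11.95-fold higher (adjusted p = 2.88e-07). Grb10, an adaptor that dampens insulin receptor signalling, read 11.77, 11.16 and 11.71 against 7.86, 7.19 and 7.55 and rose by 4.01 ± 0.31, while its other kept probe gave 0.09 ± 0.25. Replicate 1 of the controls was the lowest array for Sln. The 15 largest rises were taken among genes whose groups did not overlap, so the lack of overlap here follows from that choice. Chemokines made up 3 of the 15 largest rises. Ccl9 read 10.02, 9.30 and 8.94 against 5.91, 5.45 and 5.24, Ccl3 read 10.20, 10.62 and 9.36 against 7.44, 6.09 and 5.71 and Ccl4 read 11.70, 12.07 and 11.58 against 8.80, 8.40 and 8.28, with rises of 3.89 ± 0.42, 3.64 ± 0.64 and 3.29 ± 0.30. The transcriptional repressor Hey1, an effector of Notch signalling, read 10.17, 10.03 and 10.24 against 6.23, 6.43 and 7.15 and rose by 3.54 ± 0.34. Ddit4l, a relative of an mTOR inhibitor, rose by 3.73 ± 0.34, and the homeobox gene Dlx1 by 3.71 ± 0.36. Lrrc15, Rhbdf1, Mras, Ahnak, Cd63 and Cd80 completed the group, from 3.83 ± 0.30 for Lrrc15 down to 3.26 ± 0.46 for Cd63. Other probes of Ahnak gave 2.75, which passed, and 0.49, which did not.

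**Figure D1:**
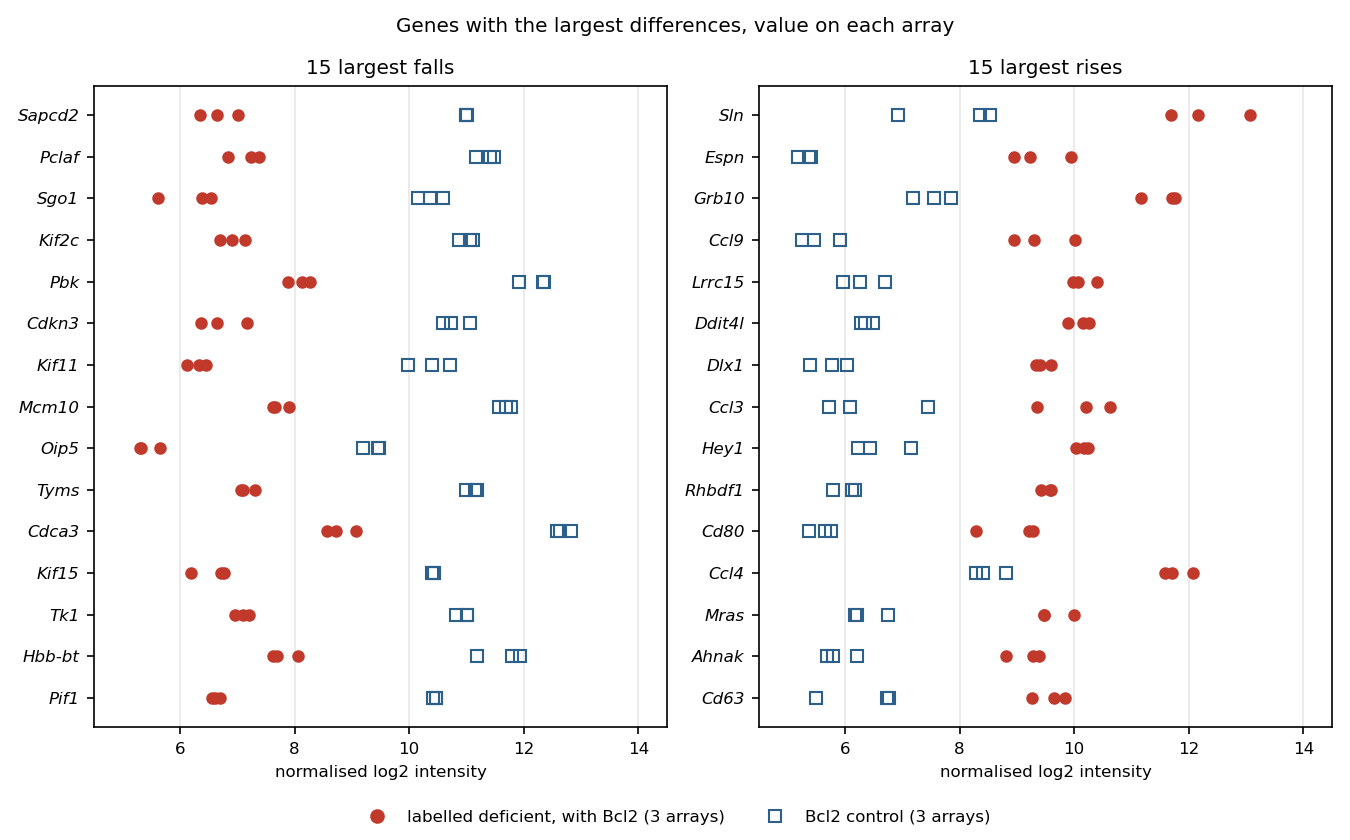
Normalised log2 intensity (x axis) on each of the 6 arrays for the 15 genes with the largest falls (left) and the 15 with the largest rises (right), with filled circles for labelled deficient arrays and open squares for Bcl2 controls. The 30 genes were chosen among passing genes whose groups do not overlap, so their separation follows from the choice. Sapcd2 runs from 6.35 to 7.01 on the labelled deficient arrays against 10.99 to 11.02 on the controls.

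DNA replication genes fell as a group. Before a cell copies its DNA, origins are licensed by loading the MCM helicase, which is then fired and joined by polymerases. Of the licensing and helicase genes, 18 of 23 measured members fell and none rose, with a median difference of -1.89 (-1.85 within slide 1 and -1.82 within slide 2). Mcm10 read 7.66, 7.90 and 7.62 against 11.69, 11.78 and 11.57. Cdc45, a subunit of the active helicase, read 7.57, 7.76 and 7.55 against 10.87, 10.74 and 10.64 and fell by 3.13 ± 0.16 (adjusted p = 2.34e-07). Mcm5, a subunit of the helicase ring, read 10.90, 11.02 and 10.94 against 13.64, 13.60 and 13.43 and fell by 2.61 ± 0.14 (adjusted p = 3.24e-07). For these 3 genes the arrays of a group lay close together and far from those of the other group. Gins1, of the complex that joins Cdc45 to the ring, fell by 2.82 ± 0.19, and the helicase Recql4 fell by 2.99 ± 0.21. The members that did not pass were Orc3, Orc4, Orc5, Gins4 and Ticrr, named here after their values were seen, and the list ran from -3.95 to -0.312.

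At the fork itself, 22 of 24 measured genes fell and none rose, with a median of -1.38 (-1.51 within slide 1 and -1.28 within slide 2). Their median level was 8.67, 8.86 and 8.97 against 10.64, 10.72 and 10.54. Clspn, an adaptor of the replication checkpoint, read 7.30, 7.33 and 7.63 against 11.41, 11.39 and 10.87 and fell by 3.80 ± 0.19, with -3.66, -2.32 and -0.55 on its other probes, of which the last did not pass. Chaf1b and Chaf1a, subunits of the chaperone that lays histones on new DNA, fell (-2.55 ± 0.15 and -3.02 ± 0.20). The DNA ligase Lig1 fell by 2.93 ± 0.22, with -3.25 on another probe that passed and -0.28 and -0.46 on probes that did not. Among genes of nucleotide synthesis 21 of 25 fell and none rose, with a median of -1.65 (-1.79 within slide 1 and -1.56 within slide 2). Tk1, which salvages thymidine, read 7.10, 7.20 and 6.95 against 11.01, 11.01 and 10.82 and fell by 3.86 ± 0.25. Shmt1, an enzyme of one-carbon metabolism, read 8.44, 8.49 and 8.47 against 11.26, 11.51 and 11.16, and Rrm2, the regulatory subunit of ribonucleotide reductase, read 8.03, 7.92 and 8.32 against 10.57, 10.45 and 10.31. Both fell (-2.84 ± 0.20 and -2.35 ± 0.20), and Dtymk, the thymidylate kinase, fell by 1.96 ± 0.17. With median scaling the number of lower genes was 12 for licensing, 10 for the fork and 13 for nucleotide synthesis, and none was higher.

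E2F transcription factors bind promoters of many replication genes. RefSeq promoters (GRCm38.p6, 250 bases before to 50 after the start) of the 2 licensing genes with the largest falls among those that hold an E2F sequence are shown because these genes fell together. Mcm5 lies at chr8:75109259-75109558 on the plus strand and Mcm6 at chr1:128359656-128359955 on the minus strand. Capitals mark TTTCGCGC or TTTGGCGC on either strand, and overlapping matches are joined.
Mcm5: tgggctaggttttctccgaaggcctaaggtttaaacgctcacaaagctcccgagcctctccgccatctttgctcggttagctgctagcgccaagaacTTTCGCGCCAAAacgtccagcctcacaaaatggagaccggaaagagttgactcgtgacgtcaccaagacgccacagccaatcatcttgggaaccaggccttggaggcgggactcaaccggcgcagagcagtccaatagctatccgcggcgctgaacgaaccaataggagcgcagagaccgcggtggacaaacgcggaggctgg
Mcm6: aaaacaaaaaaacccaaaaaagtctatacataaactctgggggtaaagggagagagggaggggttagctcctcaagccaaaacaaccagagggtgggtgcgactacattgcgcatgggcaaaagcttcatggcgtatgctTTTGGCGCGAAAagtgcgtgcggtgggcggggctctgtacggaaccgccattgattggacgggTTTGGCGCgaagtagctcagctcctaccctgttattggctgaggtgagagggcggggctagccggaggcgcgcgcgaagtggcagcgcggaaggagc
Mcm6, another subunit of the helicase ring, read 9.18, 9.53 and 9.14 against 11.94, 12.05 and 11.19 and fell by 2.45 ± 0.35 (adjusted p = 0.000401). Promoters were found for 7891 of the 9687 genes. TTTCGCGC, TTTGGCGC or GGCGGGAA was present on either strand in 5.91% of them, in 33.3% of licensing genes (6 of 18) and in 35.0% of fork genes (7 of 20). The share was 9.32% among the lower genes and 3.42% among the higher genes, and 3.03% over all 27025 promoters in the table. A match is a description of the letters, not a measured binding site.

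Genes of mitosis fell too. Kinesins and their partners build the spindle and divide the cell, and kinetochores tie chromosomes to it. Of the kinesin, spindle and cytokinesis genes, 19 of 24 fell and none rose, with a median of -2.03 (-2.17 within slide 1 and -1.96 within slide 2). Their median level was 7.15, 7.07 and 6.96 against 10.51, 10.42 and 10.21. Kif2c, which shortens microtubules at kinetochores, read 7.13, 6.91 and 6.70 against 11.11, 11.07 and 10.87 and fell by 4.11 ± 0.16 (adjusted p = 1.06e-07). Kif4, a chromosome motor, read 6.80, 6.67 and 6.69 against 10.56, 10.45 and 10.22 and fell by 3.69 ± 0.15. Kif22, another motor that binds chromosomes, read 9.57, 9.43 and 9.43 against 12.50, 12.32 and 12.26 and fell by 2.88 ± 0.14. Every labelled deficient array was far below every control array for these motors. Anln, a scaffold of the contractile ring, fell by 3.74 ± 0.20, with -0.20 on its other probe. Kif23, a motor of the central spindle, fell by 2.99 ± 0.17, while its other probes gave 0.20, -0.06 and -3.11.

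Of the centromere and kinetochore genes, 23 of 29 fell and none rose, with a median of -2.03, or -1.60 with undetected members set to their bound. Cdca8, a subunit of the chromosomal passenger complex, read 9.30, 9.34 and 9.17 against 13.01, 12.66 and 12.85 and fell by 3.57 ± 0.17. Cenpw, of the inner kinetochore, read 8.86, 8.92 and 8.99 against 11.86, 11.82 and 11.84 and fell by 2.92 ± 0.14, and Sgo2a, the relative of Sgo1, fell by 3.41 ± 0.19. Of mitotic kinases, cyclins and the anaphase promoting complex, 13 of 19 fell and none rose, with a median of -1.82. Pbk read 8.27, 8.13 and 7.89 against 12.34, 12.35 and 11.91, and Cdc20, the activator of the anaphase promoting complex, read 10.05, 10.08 and 9.93 against 12.95, 12.82 and 12.83. Both fell (-4.10 ± 0.18 and -2.85 ± 0.14). The kinase Aurka, which acts at spindle poles, fell by 2.90 ± 0.15, and the phosphatase Cdc25c, which activates CDK1, was below background on the labelled deficient arrays and at least 6.62-fold lower (adjusted p = 4.6e-07). Among condensin, cohesin and topoisomerase genes, 13 of 22 fell, and these were condensin subunits such as Ncaph (-2.28 ± 0.18), the cohesin acetyltransferase Esco2 (-3.69 ± 0.17), separase (Espl1, -3.63 ± 0.19) and topoisomerase Top2a (-3.61 ± 0.31), among others. The median of this list was -0.72, nearer to 0 than those of the other mitotic lists. Ncapg2 gave -3.09 ± 0.25 on the brightest probe and -0.42 on the other.

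The cell cycle homology region (CHR), TTTGAA, occurs in promoters of many mitotic genes. RefSeq promoters of the 2 kinesin genes with the largest falls among those that hold it are shown, Kif2c at chr4:117178723-117179022 on the minus strand and Kif11 at chr19:37376132-37376431 on the plus strand. Capitals mark the match, which is on the reverse strand in both, at -103 for Kif2c and -19 for Kif11, counted in bases from the start.
Kif2c: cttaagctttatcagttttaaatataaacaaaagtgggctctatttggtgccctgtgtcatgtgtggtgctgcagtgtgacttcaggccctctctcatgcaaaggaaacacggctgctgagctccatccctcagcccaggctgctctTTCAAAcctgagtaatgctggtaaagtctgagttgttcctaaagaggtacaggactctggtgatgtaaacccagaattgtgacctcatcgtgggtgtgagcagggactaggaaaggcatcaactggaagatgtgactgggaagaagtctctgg
Kif11: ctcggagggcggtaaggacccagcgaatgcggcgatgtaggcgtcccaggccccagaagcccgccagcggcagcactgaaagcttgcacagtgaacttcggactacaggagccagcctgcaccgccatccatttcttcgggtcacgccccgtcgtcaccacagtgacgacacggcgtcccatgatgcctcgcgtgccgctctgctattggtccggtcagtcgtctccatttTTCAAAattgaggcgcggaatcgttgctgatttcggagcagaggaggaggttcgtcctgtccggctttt
Kif11, which slides microtubules apart to build a bipolar spindle, read 6.45, 6.32 and 6.13 against 10.71, 10.40 and 9.98 and fell by 4.06 ± 0.26 (adjusted p = 9.55e-07). TTTGAA was found on either strand in 77.3% of the promoters of the kinesin list (17 of 22), 57.1% of the mitotic kinase list (8 of 14) and 36.0% of the centromere list (9 of 25). Among all genes tested the share was 12.3%, among lower genes 17.5% and among higher genes 9.96%. Over all 27025 promoters of the table it was 18.1%, above the share in the genes tested.

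Repair and chromatin genes of dividing cells fell too. Homologous recombination mends breaks with the sister chromatid as template. In that list 17 of 22 genes fell and none rose, with a median of -1.75, or -1.60 with bounds. Fancd2, of the pathway that repairs crosslinks, read 5.82, 6.06 and 6.00 against 9.39, 9.34 and 9.21 and fell by 3.35 ± 0.16. Rad54b and Rad54l, motors that help strands to pair, fell (-3.79 ± 0.23 and -3.33 ± 0.17). Ung, which removes uracil from DNA, fell by 2.53 ± 0.18. Of the chromatin and nuclear envelope genes 14 of 19 fell and none rose, with a median of -1.48. Lmnb1, which encodes lamin B1, read 10.38, 10.54 and 10.57 against 13.19, 13.54 and 13.03 and fell by 2.76 ± 0.22. The histone variant H2ax read 8.98, 9.52 and 9.57 against 12.07, 12.05 and 12.47 and fell by 2.84 ± 0.25. Hmgb2 fell by 2.30 ± 0.18, Asf1b, a histone chaperone, fell by 2.80 ± 0.33, and Uhrf1, which guides DNA methylation to new strands, fell by 1.54 ± 0.17. With median scaling 8 genes of this chromatin list were lower.

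Regulators of entry into the cycle fell in part. Of 27 genes for G1 cyclins, CDK inhibitors, Rb and E2F proteins, 10 fell and 3 rose, with a median of -0.452. The share that fell was 37%, against 12.3% of all genes tested. The share that rose was 11.1%, close to the 12.8% of all genes tested. The cyclin Ccne2 read 6.12, 5.74 and 5.76 against 8.29, 8.49 and 8.22 and fell by 2.46 ± 0.16. Its relative Ccne1 was below background on the labelled deficient arrays and at least 3.19-fold lower (adjusted p = 0.000538). E2f1 fell by 1.70 ± 0.20 and its partner Tfdp1 fell by 2.04 ± 0.25. The 3 genes that rose were Cdkn2b, Cdkn1a and Rb1, of which the last 2 were named after their values were seen. Cdkn2b, an inhibitor of CDK4 and CDK6, read 10.10, 10.17 and 10.66 against 8.28, 8.10 and 8.73 and rose by 1.94 ± 0.28. Cdkn1a, the p21 inhibitor, read 14.40, 14.19 and 14.50 against 12.84, 12.65 and 13.00 and rose by 1.53 ± 0.27 (adjusted p = 0.00167). Rb1, the retinoblastoma protein that holds E2F in check, rose by 0.79 ± 0.15 (adjusted p = 0.00239). With median scaling 6 members were lower and 1 higher.

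Genes that mark resting lymphocytes rose. Of 18 measured, 11 rose and none fell, with a median of 0.838 (0.97 within slide 1 and 0.90 within slide 2). Slfn2, a gene that keeps T cells at rest in mice, read 9.78, 9.58 and 9.39 against 7.53, 7.54 and 7.57 and rose by 2.04 ± 0.26 (adjusted p = 0.000163). The antiproliferative gene Tob2 read 10.74, 10.56 and 10.68 against 9.60, 9.28 and 9.78 and rose by 1.11 ± 0.17. Klf2, a transcription factor of resting and migrating lymphocytes, read 10.77, 10.74 and 10.57 against 9.11, 9.33 and 9.09 and rose by 1.52 ± 0.30. The groups did not overlap for these genes. Txnip, an inhibitor of glucose uptake, rose by 1.02 ± 0.23. Tsc22d3, a glucocorticoid target, rose by 0.96 ± 0.17 on its brightest probe and gave 0.22 and 0.24 on the others. The count was 5 with median scaling and 6 to 9 with 1 array left out, lowest (6) without labelled deficient replicate 1, 2 or 3 or control replicate 2, and 7 without control replicate 1.

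**Figure D2:**
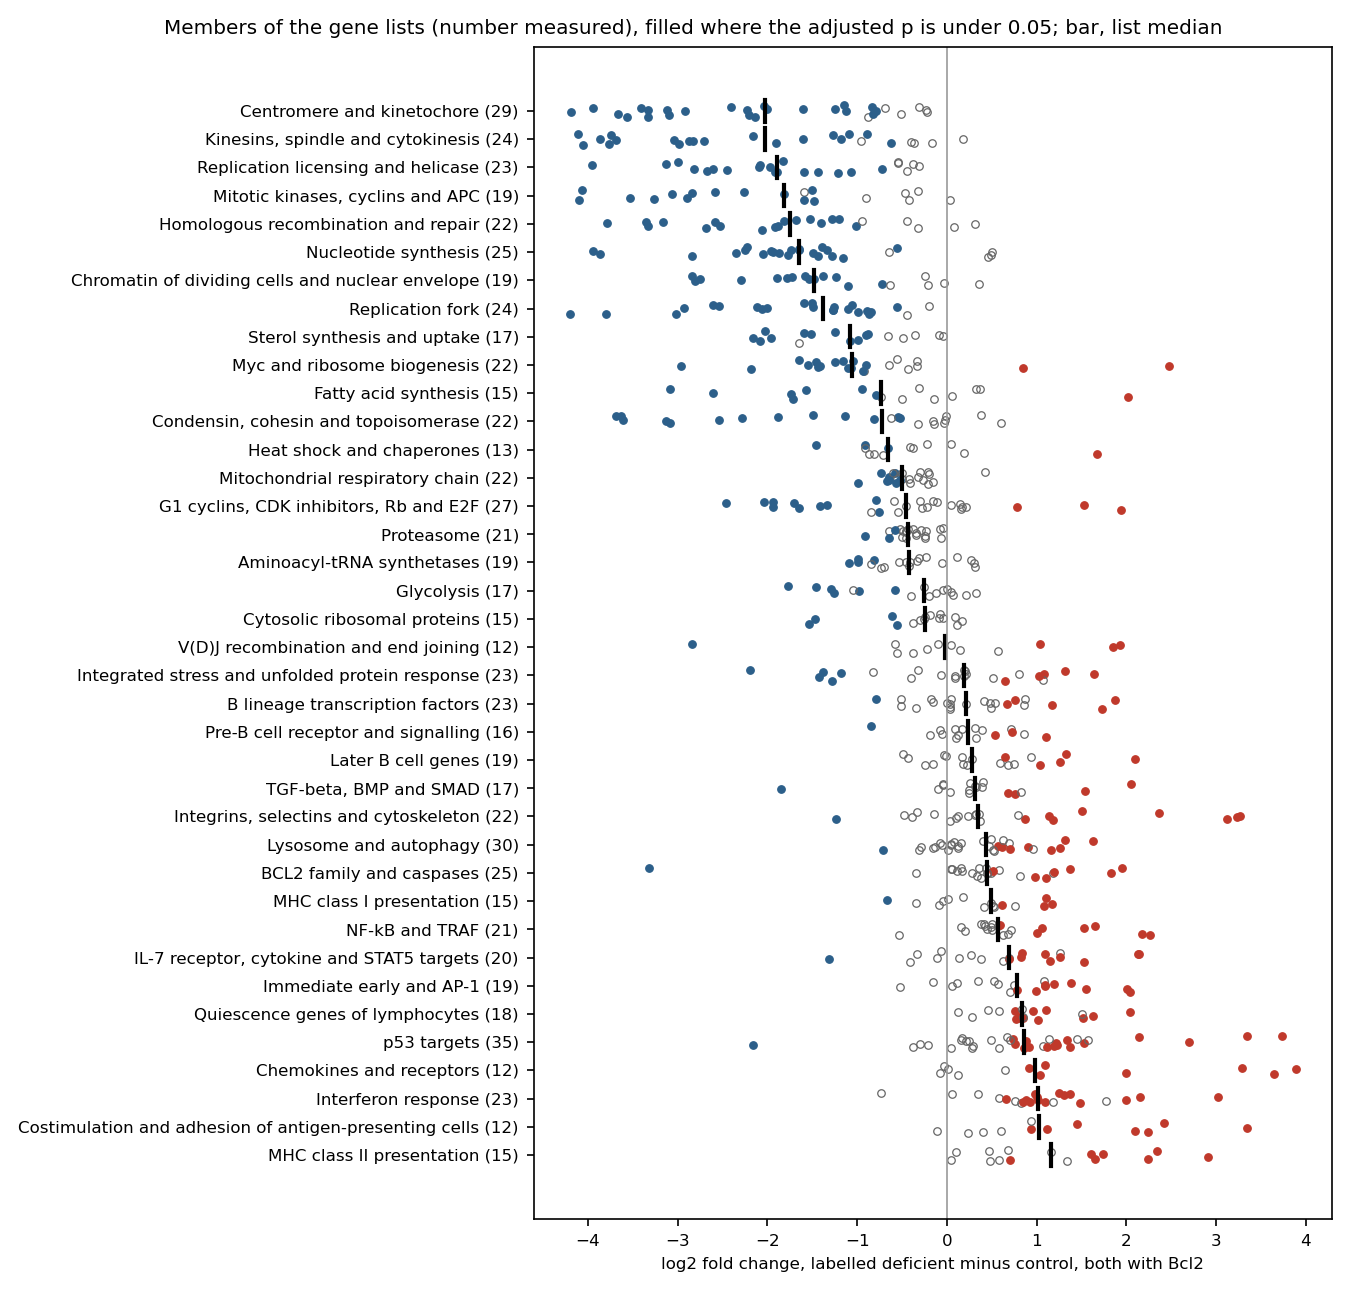
Log2 fold change (x axis) of each measured member of the 38 gene lists other than cell type markers, with the number measured in brackets. Filled points passed the test (red higher, blue lower), open points did not, and the bar is the list's median. The lists of cell division lie furthest to the left, with medians down to -2.03. The median of MHC class II genes is 1.16, or 0.698 with undetected members set to their bound.

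Genes that make sterols fell. Cells build cholesterol from acetyl groups through mevalonate and squalene, and the enzymes are controlled together by SREBP factors. Of 17 measured, 11 fell and none rose, with a median of -1.08 (-1.20 within slide 1 and -1.11 within slide 2). Cyp51, a demethylase of the late pathway, read 8.21, 8.00 and 8.08 against 10.31, 10.39 and 10.06 and fell by 2.16 ± 0.23 (adjusted p = 4.24e-05). Fdps, which makes farnesyl units, read 11.08, 11.17 and 11.23 against 13.20, 13.31 and 13.22 and fell by 2.08 ± 0.28. Sqle, the squalene epoxidase, read 10.08, 10.01 and 9.88 against 12.01, 12.18 and 11.65 and fell by 1.96 ± 0.20. The groups did not overlap for any of these enzymes. Mvd fell by 1.52 ± 0.20, and Insig1, a sterol sensor, fell by 1.59 ± 0.23. The SREBP sequence TCACNCCAC was in none of the 14 promoters of this list, against 0.887% of all genes tested, while CCAAT was in 13 of the 14 (92.9%), against 39.4% of all genes tested. Both were searched on either strand. With median scaling 4 sterol genes were lower.

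Of 15 fatty acid genes 7 fell and 1 rose, with a median of -0.738. The desaturase Scd2 read 6.42, 6.66 and 6.52 against 9.84, 9.73 and 9.28 and fell by 3.08 ± 0.32. The desaturases Fads1 and Fads2 fell (-1.74 ± 0.17 and -2.61 ± 0.32), and Acsl3, which activates fatty acids, fell by 1.72 ± 0.18. Lpin1, a phosphatase that makes diacylglycerol, was the member that rose, from a control level of 6.38 to 6.68 to 8.29 to 8.75 on the labelled deficient arrays (2.02 ± 0.25). Of 17 glycolysis genes 6 fell (35.3%, against 12.3% of all genes tested) and none rose. The median was -0.252, and the count was 2 with median scaling. Ldha, which makes lactate, read 12.04, 12.36 and 12.37 against 13.84, 14.33 and 13.92 and fell by 1.78 ± 0.18. Gapdh and Tpi1, enzymes of the middle of the pathway, fell (-1.46 ± 0.21 and -1.26 ± 0.17). Pgk1 fell by 1.30 ± 0.30, while its other probe gave -0.57 and did not pass.

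Growth genes mostly fell. In the list of Myc and ribosome biogenesis, 14 of 22 fell and 2 rose, with a median of -1.06 (-1.10 within slide 1 and -1.01 within slide 2). Polr1a, the largest subunit of RNA polymerase I, read 10.32, 10.48 and 10.24 against 11.74, 11.73 and 11.90 and fell by 1.44 ± 0.19 (adjusted p = 0.000201). Nop58, a core protein of nucleolar RNA particles, read 10.26, 10.41 and 10.78 against 11.95, 12.37 and 12.07 and fell by 1.65 ± 0.22, and Gar1 fell by 1.10 ± 0.16. Members of the Myc network differed in direction. Mycl read 8.43, 8.68 and 8.60 against 6.20, 6.14 and 5.95 and rose by 2.48 ± 0.32, Mxd1 rose by 0.85 ± 0.28, and Mxd3 was below background on the labelled deficient arrays and at least 4.22-fold lower (adjusted p = 0.000177). Myc read 6.31, 6.10 and 6.35 against 8.52, 8.44 and 8.34 and fell by 2.18 ± 0.45 (adjusted p = 0.00413). Myc and Mxd1 were named after their values were seen. With median scaling 5 genes were lower and 1 higher, and 1 was higher without any 1 of the 6 arrays.

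Of the machinery of translation, energy and protein turnover a minority of genes fell. Of the cytosolic ribosomal protein genes 4 of 15 fell, of the aminoacyl-tRNA synthetases 4 of 19, of the respiratory chain 8 of 22 and of the proteasome 3 of 21, and none rose in any of these lists. These shares are 26.7%, 21.1%, 36.4% and 14.3%, against 12.3% of all genes tested, and that of the proteasome is close to it. Their medians were -0.24, -0.419, -0.501 and -0.431. The ribosomal share is read with care, since many ribosomal protein genes have near-identical copies. Rpl4 read 10.29, 10.54 and 10.08 against 11.82, 12.19 and 11.51 and fell by 1.54 ± 0.19. Cycs, the electron carrier cytochrome c, read 11.17, 11.10 and 11.10 against 12.01, 12.16 and 12.16 and fell by 0.99 ± 0.14. The other Cycs probe gave -0.14 and did not pass. Lars, the leucine synthetase, fell by 0.81 ± 0.18, and Ndufa4 fell by 0.74 ± 0.15. Without the dim control replicate 3 from the arrays without added Bcl2, 10 synthetases, 14 respiratory genes and 10 proteasome genes were lower. With the replicate block 7 synthetases were lower. With median scaling the counts of lower genes were 2 for the ribosome and 0 for the other 3 lists, and with 1 array left out they were 2 to 4 for the ribosome, 4 to 6 for the respiratory chain and 1 to 3 for the proteasome.

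Interferon response genes rose together. Interferons are released on infection and induce genes that restrict viruses, many of which carry a promoter sequence known as ISRE. Of 23 measured 15 rose and none fell, with a median of 1.01 (0.98 within slide 1 and 1.00 within slide 2), or 0.845 with undetected members set to their bound. Their median level was 8.62, 8.86 and 8.49 against 7.71, 7.63 and 7.59. Ifit3, which binds viral RNA complexes, read 10.10, 10.32 and 10.29 against 7.71, 7.09 and 6.84 and rose by 3.02 ± 0.24 (adjusted p = 4.94e-06). The guanylate-binding protein Gbp2 read 13.88, 14.27 and 14.19 against 11.93, 12.12 and 11.84 and rose by 2.15 ± 0.20. Igtp, a GTPase of defence against intracellular parasites, read 11.01, 10.86 and 11.05 against 9.73, 9.58 and 9.50 and rose by 1.37 ± 0.16. The groups did not overlap for these 3 genes, and control replicate 1 was the highest control for Ifit3 and Igtp. Usp18, which restrains interferon signalling, rose by 1.99 ± 0.34, and Parp14 by 1.01 ± 0.17. The RefSeq promoter of Ifit3 (chr19:34583279-34583578, plus strand) is shown as that of the interferon gene with the largest rise among those that hold the ISRE sequence. Capitals mark GAAA followed by any pair of letters and GAAA again, here on the reverse strand.
Ifit3: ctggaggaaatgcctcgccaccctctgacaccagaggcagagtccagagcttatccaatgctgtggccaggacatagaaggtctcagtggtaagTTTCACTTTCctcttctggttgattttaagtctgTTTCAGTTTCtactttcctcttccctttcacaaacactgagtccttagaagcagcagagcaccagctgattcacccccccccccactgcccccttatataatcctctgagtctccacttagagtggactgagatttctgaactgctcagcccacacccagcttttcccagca
This sequence was found on either strand in 11 of the 17 promoters of this list (64.7%), against 3.18% of all genes tested. Among all higher genes the share was 3.92% and among lower genes 1.82%.

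Antigen presentation genes rose in part. Of MHC class II genes, which show peptides to helper T cells, 7 of 15 rose and none fell, with a median of 1.16, or 0.698 with bounds (0.60 within slide 1 and 1.06 within slide 2). The mean of the median level was 10.51 on the labelled deficient and 8.49 on the control arrays with Bcl2, against 10.41 and 10.01 without it, so the Bcl2 controls were the lowest of the 4 groups. Cd74, the invariant chain, read 14.47, 14.48 and 14.27 against 12.03, 12.36 and 11.83 and rose by 2.34 ± 0.44 (adjusted p = 0.00239). H2-Eb1 read 10.80, 11.18 and 9.94 against 7.15, 8.67 and 7.36 and rose by 2.91 ± 0.49. H2-Ab1 read 11.07, 11.60 and 9.69 against 8.06, 9.47 and 8.12 and rose by 2.24 ± 0.57, with control replicate 2 close to labelled deficient replicate 3. Control replicate 2 was the highest control for the 3 genes. The call for H2-Ab1 was lost in 7 alternatives, among them without labelled deficient replicate 1 or 2 or without control replicate 1 or 3. The peptide loading genes H2-DMb1 and H2-DMb2, near-identical copies that probes may not separate, rose by 1.61 ± 0.24 and 1.74 ± 0.41. With the replicate block 11 class II genes rose, likewise 11 without the dim array, and 2 with median scaling.

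Of MHC class I genes 4 of 15 rose (26.7%) and 1 fell (6.67%), against 12.8% and 12.3% of all genes tested. The median was 0.487. Tap2, of the peptide transporter, read 12.61, 12.74 and 12.63 against 11.45, 11.48 and 11.72 and rose by 1.11 ± 0.16. H2-K1 and H2-Q7, close relatives whose probes may share targets, rose by 1.08 ± 0.19 and 1.17 ± 0.21. Nlrc5, a transcriptional activator of class I genes, was the member that fell (-0.67 ± 0.19, adjusted p = 0.0235), a call lost on leaving out any of the 6 arrays. The number that rose was 8 without the dim array and 1 with median scaling. Costimulatory molecules give T cells their accompanying signal. Of 12 measured 7 rose and none fell, with a median of 1.03. Cd80 was below background on the control arrays (9.20, 8.29 and 9.28 against 5.37, 5.65 and 5.75) and was at least 8.72-fold higher (adjusted p = 2.5e-06). Cd83 read 8.21, 8.81 and 8.09 against 6.21, 6.41 and 5.78 and rose by 2.24 ± 0.24. Cd86 read 7.71, 7.88 and 7.57 against 5.41, 6.01 and 5.45 and rose by 2.09 ± 0.19, with 1.73 on another probe that passed and 0.38 on one that did not. Cd274, the inhibitory ligand PD-L1, rose by 1.45 ± 0.32.

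Many targets of p53 rose. The transcription factor p53 responds to DNA damage and other stress by inducing genes of cell cycle arrest, repair and death. Of 35 measured 16 rose and 1 fell, against 12.8% and 12.3% of all genes, with a median of 0.859 (0.88 within slide 1 and 0.78 within slide 2). Fas, a death receptor, read 10.65, 10.32 and 10.93 against 7.93, 7.95 and 7.93 and rose by 2.70 ± 0.28 (adjusted p = 4.5e-05). Mdm2, the ligase that degrades p53, read 14.05, 13.91 and 13.86 against 12.73, 12.61 and 12.82 and rose by 1.22 ± 0.20. Ddit4l and Cd80, given above, are members too, and so is Cdkn1a. The groups did not overlap for these 5 genes. The member that fell was Ckap2, a spindle protein that also stands in the mitotic list, which read 7.23, 6.94 and 7.21 against 9.55, 9.33 and 8.96 and fell by 2.16 ± 0.29. Fas was also higher by 1.27 ± 0.28 without added Bcl2, where it did not pass.

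Some genes of the death machinery rose. In the list of caspases and BCL2 relatives 7 of 25 rose (28%) and 1 fell (4%), against 12.8% and 12.3% of all genes tested. The median was 0.45 (0.47 within slide 1 and 0.46 within slide 2). Bcl2l11, which encodes the death-promoting protein Bim, read 13.78, 13.71 and 13.87 against 11.92, 11.78 and 11.79 and rose by 1.96 ± 0.21 (adjusted p = 5.53e-05), with 1.92 and 0.82 on other probes that passed and 0.49 on one that did not. Mcl1, a protective relative of Bcl2, read 12.81, 12.93 and 12.70 against 11.77, 11.79 and 11.91 and rose by 0.99 ± 0.19. Bok, a pore-forming relative, was below background on the labelled deficient arrays (4.77, 4.79 and 5.22 against 7.99, 8.57 and 8.19) and was at least 5.85-fold lower (adjusted p = 5.98e-07). Bim acts for and Mcl1 against cell death, and both rose. The inflammatory caspase Casp1 rose by 1.11 ± 0.14. Casp4 rose by 1.83 ± 0.23 on its brightest probe, and its others gave 0.13 and 1.00. The number that rose was 14 without the dim array.

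B lineage genes were present on all 6 arrays and some rose. Vpreb1, Igll1 and Cd79b, which make up the pre-B cell receptor and its signal, read 14.08 or more on every array. Of 19 early B cell markers with a named probe 17 were detected on at least 1 of the 6 arrays. Mme and Enpep were below background on all 6, and Pax5, the factor that commits cells to the B lineage, and Cd24a were above it on 1 array each. Of 15 that could be tested 5 rose (33.3%, against 12.8% of all genes tested) and none fell, with a median of 0.388. The summed level of the markers, in linear units, was 193900 to 202500 on the labelled deficient and 149800 to 157400 on the control arrays, a ratio of means of 1.29. Rag1, of the enzyme that cuts antibody genes, read 11.06, 11.46 and 11.00 against 8.92, 9.25 and 9.56 and rose by 1.93 ± 0.37 (adjusted p = 0.00272). Dntt, which adds bases at the joints, read 8.89, 9.31 and 8.92 against 7.16, 7.52 and 6.89 and rose by 1.85 ± 0.28. Il7r read 12.50, 12.67 and 12.16 against 11.54, 11.71 and 11.55 and rose by 0.84 ± 0.17 on its brightest probe, with 0.75 on another probe that passed and 0.41 and 0.54 on probes that did not. Kit, the receptor for SCF, read 12.46, 11.79 and 12.35 against 11.44, 10.98 and 10.90 and rose by 1.09 ± 0.25. The other Kit probe gave 0.43 and did not pass. For these 4 genes all labelled deficient arrays lay above all controls. Ebf1 read 11.02, 11.18 and 11.05 against 10.52, 10.73 and 10.77 and did not pass (0.41 ± 0.15, adjusted p = 0.0776). With median scaling 2 markers rose.

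Of 12 genes of V(D)J recombination and end joining 3 rose (Rag1, Dntt and Xrcc6) and 1 fell (H2ax), with a median of -0.0257. These shares are 25% and 8.33%, against 12.8% and 12.3% of all genes tested. Xrcc6 encodes Ku70, which holds broken ends, and rose by 1.04 ± 0.21 on its brightest probe and by 1.25 on another, while one further probe gave -0.06. With the replicate block 2 genes of this list fell. Among pre-B cell receptor genes 3 of 16 rose (18.8%, against 12.8% of all genes tested) and 1 fell (6.25%, against 12.3%). The median of this list was 0.24. The kinase Syk read 6.25, 6.90 and 6.95 against 5.39, 5.90 and 5.49 and rose by 1.10 ± 0.27, and the related kinase Zap70 read 6.43, 6.62 and 6.41 against 7.48, 7.04 and 7.48 and fell by 0.85 ± 0.20. Cd79b rose by 0.73 ± 0.19. The number that rose was 5 with the replicate block, 6 without the dim array and 1 with median scaling, and it was 1 without control replicate 1 or 2 and 0 without labelled deficient replicate 3. Beyond the pro-B stage, 5 of 19 later B cell genes rose (26.3%, against 12.8% of all genes tested) and none fell. Ltb, a cytokine that organises lymphoid tissue, read 11.76, 11.65 and 12.09 against 9.54, 9.56 and 10.11 and rose by 2.10 ± 0.30. The others that rose (Cd2, Cxcr5, Fcmr and Xbp1) ran from 0.65 ± 0.18 to 1.33 ± 0.38, and with 1 array left out the count was 1 to 4, the lowest without labelled deficient or control replicate 1. It was 2 without control replicate 2, 3 without labelled deficient replicate 2 or 3, and 1 with median scaling.

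Of 23 transcription factors of the lineage 5 rose and 1, Bcl11a, fell, with a median of 0.207. These shares are 21.7% and 4.35%, against 12.8% and 12.3% of all genes tested. Foxo1, which drives Rag and Il7r expression, read 12.29, 11.98 and 11.99 against 11.03, 10.85 and 10.85 and rose by 1.17 ± 0.18 (adjusted p = 0.000703). Bcl6, a repressor that protects pre-B cells during recombination, read 11.36, 11.35 and 11.21 against 9.04, 9.57 and 9.70 and rose by 1.87 ± 0.42. Id2, an inhibitor of E proteins, read 9.32, 9.45 and 9.49 against 7.77, 7.44 and 7.88 and rose by 1.73 ± 0.25, and Irf4 rose by 0.76 ± 0.19. These 4 genes were higher on 3 of 3 labelled deficient arrays than on any control. The number that rose was 11 without the dim array, 3 without labelled deficient replicate 1 and 2 with median scaling. Of 20 genes of IL-7 and STAT5 signalling 9 rose and 1 fell, with a median of 0.689 (0.62 within slide 1 and 0.74 within slide 2). Pim2, a survival kinase, read 9.74, 9.60 and 10.06 against 7.54, 7.42 and 8.00 and rose by 2.14 ± 0.20. Socs3 and Cish, feedback inhibitors of cytokine signals, rose by 2.13 ± 0.21 and 1.15 ± 0.15, and Il2ra, an IL-2 receptor chain, by 1.53 ± 0.23. Gfi1, a transcriptional repressor, was the member that fell (-1.31 ± 0.19). With median scaling 5 rose.

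**Figure D3:**
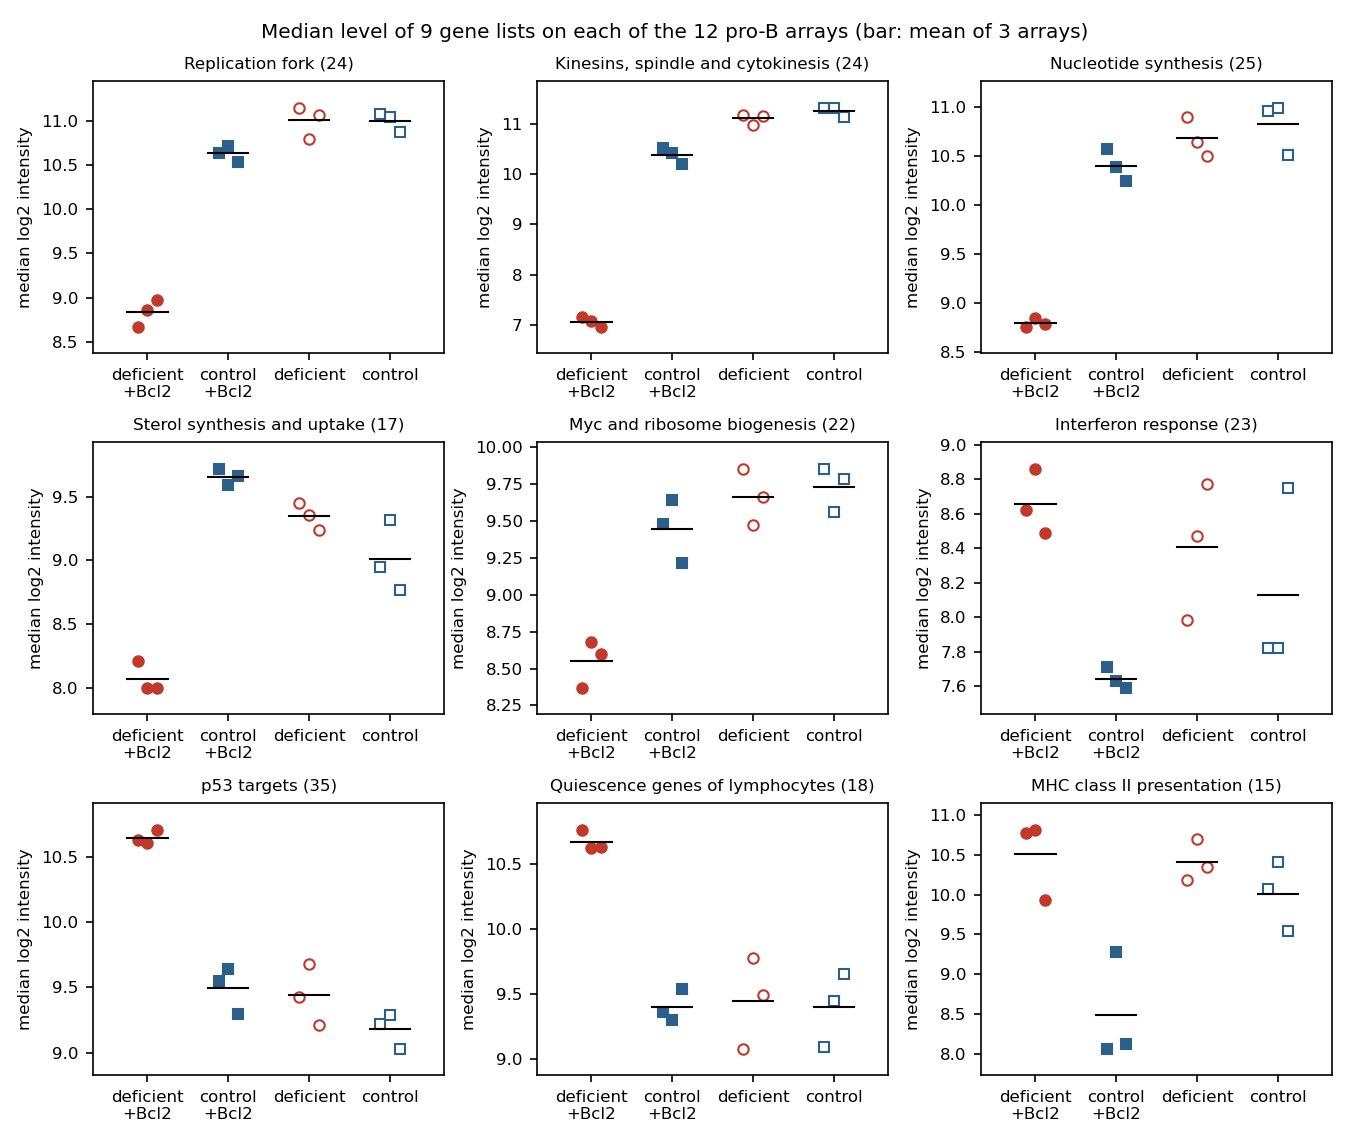
Median normalised log2 intensity (y axis) of the measured members of 9 gene lists on each of the 12 pro-B arrays, with the number of genes in brackets, filled points for arrays with added Bcl2 and the bar for the mean of 3 arrays. The labelled deficient arrays with Bcl2 stand apart in most panels, with replication fork genes at 8.83 on average against 10.63 on the Bcl2 controls and 11.01 and 11.00 without added Bcl2.

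Some genes of inflammatory signalling rose, though most of those measured in the NF-kB and immediate early lists did not pass. Of 21 NF-kB and TRAF genes 7 rose (33.3%, against 12.8% of all genes tested) and none fell. The median was 0.573 (0.78 within slide 1 and 0.46 within slide 2). Relb, a subunit of NF-kB, read 9.37, 9.27 and 9.53 against 7.87, 7.63 and 8.09 and rose by 1.53 ± 0.26. Traf1 was below background on the control arrays (7.32, 7.23 and 7.22 against 5.26, 4.97 and 5.02) and was at least 2.74-fold higher (adjusted p = 1.5e-05). Traf5 rose by 2.26 ± 0.40 and Bcl3 by 1.65 ± 0.27. The number was 14 without the dim array, 4 with median scaling and 1 within slide 1. Of 19 immediate early and AP-1 genes 9 rose and none fell, with a median of 0.786. Jun read 10.33, 10.31 and 10.47 against 8.31, 8.00 and 8.67 and rose by 2.04 ± 0.32. Jund rose by 1.38 ± 0.26, and Zfp36, which destabilises cytokine messages, by 1.09 ± 0.20. Fosl2 and Atf3 were below background on the control arrays and at least 3-fold and 1.63-fold higher (adjusted p = 2.56e-05 and 0.000782). Of 12 chemokine and receptor genes 7 rose and none fell, with a median of 0.976. Besides Ccl3, Ccl4 and Ccl9, Ccl5 read 7.87, 8.25 and 7.41 against 6.06, 6.01 and 5.47 and rose by 1.99 ± 0.27. Cxcr4, which holds precursors in the marrow, read 11.44, 11.96 and 11.57 against 10.44, 10.85 and 10.40 and rose by 1.09 ± 0.24.

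Adhesion and cytoskeletal genes rose in part, 8 of 22 (36.4%) with 1 lower (4.55%) and a median of 0.344. The shares over all genes tested were 12.8% and 12.3%. Lgals3, a galectin, read 8.88, 9.63 and 8.69 against 5.32, 6.76 and 5.41 and rose by 3.24 ± 0.42, and S100a6, a calcium-binding protein, read 9.12, 9.04 and 8.16 against 5.95, 6.07 and 4.95 and rose by 3.12 ± 0.34. The fibronectin receptor chain Itga5 read 8.18, 7.75 and 8.10 against 5.17, 5.73 and 6.04 and rose by 2.37 ± 0.25, and Itgal rose by 1.18 ± 0.18. Control arrays varied more than labelled deficient arrays for Itga5 and Lgals3, without overlap. Of 17 TGF-beta family genes 4 rose (23.5%) and 1 fell (5.88%), against 12.8% and 12.3% of all genes tested. Tgfb3, the ligand, read 8.85, 8.77 and 9.32 against 10.83, 10.55 and 11.10 and fell by 1.84 ± 0.23 (adjusted p = 0.000177), and it was also lower without added Bcl2. Eng, a co-receptor, rose by 1.54 ± 0.25, and Ski, which represses SMAD targets, by 2.05 ± 0.38. Tgfbr2 and Smad3 rose by 0.69 ± 0.18 and 0.76 ± 0.26. The call for Smad3 was borderline (adjusted p = 0.0499). It was lost in 11 alternatives, among them on leaving out any of the 6 arrays, and the other Smad3 probe gave 0.61 and did not pass. The number of TGF-beta family genes that rose was 2 without labelled deficient replicate 1 or 2 or control replicate 1. The other probes of Tgfbr2 gave -0.34 and 0.43.

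The 3 lists of stress and lysosome genes differed in direction. Of 23 genes of the integrated stress and unfolded protein responses 5 rose and 5 fell (21.7% each, against 12.8% and 12.3% of all genes tested). The median was 0.188. Those named that rose act in stress signalling: the phosphatase subunit Ppp1r15a (1.64 ± 0.20), Trib3 (1.32 ± 0.27) and the transcription factor Atf5 (1.09 ± 0.22). Psat1 and Shmt2, which make serine and one-carbon units, fell (-2.20 ± 0.34 and -1.28 ± 0.19). With median scaling 3 rose and none fell, and 3 fell without control replicate 1 or labelled deficient replicate 2. Of 13 chaperone genes 1 rose (7.69%) and 3 fell (23.1%), with a median of -0.661 (-0.71 within slide 1 and -0.64 within slide 2). The stress-induced Hspa1a read 7.30, 7.32 and 7.29 against 5.42, 5.48 and 5.98 and rose by 1.67 ± 0.23, though a near-identical copy may share its probe. The mitochondrial chaperone Hspd1 read 9.09, 9.66 and 9.74 against 10.86, 11.25 and 10.78 and fell by 1.46 ± 0.26. The count of lower chaperones was 8 without the dim array, 0 with median scaling, 2 without control replicate 3 and 1 without any other of the 6 arrays. Lysosome and autophagy genes rose in 8 of 30 (26.7%) and fell in 1 (3.33%), with a median of 0.434. The shares over all genes tested were 12.8% and 12.3%. Sqstm1, an autophagy receptor, read 12.75, 12.73 and 12.69 against 11.09, 10.95 and 11.26 and rose by 1.62 ± 0.23. Gabarapl1 rose by 1.26 ± 0.27, Neu1, a sialidase, by 1.16 ± 0.26, and Psap by 0.90 ± 0.19. With median scaling 2 rose.

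Many markers of other cell types were undetected, and some of those detected differed between the groups. The summed level of 22 neutrophil and monocyte markers was 3589, 5257 and 3067 in linear units on labelled deficient arrays, against 1255, 1357 and 1076 on controls, a ratio of means of 3.23, and the groups did not overlap. Of these 22 markers 12 were undetected on all 6 arrays, among them Mpo, Ctsg, S100a8, S100a9 and Itgam. Most of the sum on the labelled deficient arrays was Fcgr3, Lyz1 and Cebpb. Of 14 tested 4 rose (28.6%, against 12.8% of all genes tested) and 10 did not pass. The list's median was 0.126, or 0 with undetected members set to their bound. The mean of its median level was 5.65 on labelled deficient and 5.25 on control arrays with Bcl2, against 7.78 and 7.42 without it. Both groups with Bcl2 thus stood below both groups without it. Fcgr3, an Fc receptor, read 10.42, 11.36 and 10.25 against 7.18, 7.88 and 7.21 and rose by 3.25 ± 0.29. Lyz1 read 9.22, 9.87 and 8.66 against 6.95, 7.80 and 6.35 and rose by 2.22 ± 0.41, and its near-identical copy Lyz2 was at least 1.83-fold higher (adjusted p = 0.0194), with 0.04 on its other probe. Cebpb, a transcription factor of myeloid and stressed cells, rose by 2.10 ± 0.35. Labelled deficient replicate 2 had the highest level of Fcgr3 and Lyz1, and control replicate 2 the highest of the controls. That replicate pair was also the highest of each group for H2-Eb1 and H2-Ab1. The part of myeloid cells in the rises of MHC class II, costimulatory, chemokine and adhesion genes was not tested.

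The summed level of 12 plasmacytoid dendritic cell markers was 45030 to 47500 on labelled deficient arrays, against 20240 to 25430 on controls, a ratio of 2.06. Most of it was Ly6d, which B cell precursors also express and which read 15.07, 15.13 and 15.25 against 13.70, 13.38 and 14.00 and rose by 1.46 ± 0.35. The list's median was -0.178. Among conventional dendritic cell markers the ratio was 1.57. Itgax, Clec9a and Flt3 were undetected, and 3 of 7 rose (Zbtb46, below background on the controls and at least 1.39-fold higher with an adjusted p of 0.00051, Id2 and Irf4). For T cell markers the ratio was 1.09, with Cd3d, Cd3e, Cd3g, Cd4 and Cd8a undetected. Most of the sum was Cd8b1, which read 12.67, 12.54 and 12.54 against 12.73, 12.63 and 12.62. Cd2, Zap70 and Notch1 were detected on all 6 arrays as well. Notch1, a receptor that steers precursors to the T lineage, averaged 8.99 ± 0.10 against 6.97 ± 0.13 (SD, n = 3 each) and rose by 2.02 ± 0.37. The ratio was 1.33 for 15 stromal and endothelial markers, 1.97 for 12 basophil and mast cell markers and 1.55 for 18 stem cell markers, and Kit is a member of the last 2 lists. Natural killer markers gave 0.964, and Nkg7, a granule protein, read 6.96, 7.32 and 5.93 against 9.25, 9.35 and 8.44 and fell by 2.28 ± 0.39. Erythroid markers gave 0.599. The adult beta globin genes are near-identical, so their probes may not separate them. Hbb-bt read 8.07, 7.69 and 7.63 against 11.93, 11.19 and 11.79 and fell by 3.84 ± 0.27. Without added Bcl2 it averaged 8.44 on labelled deficient and 9.34 on control arrays, so the Bcl2 controls were the highest group. Hbb-bs read 8.58, 8.42 and 8.16 against 12.40, 11.53 and 11.95 and fell by 3.57 ± 0.25. Hba-a1, Gata1, Klf1 and Alas2 were undetected on all 6 arrays.

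**Figure D4:**
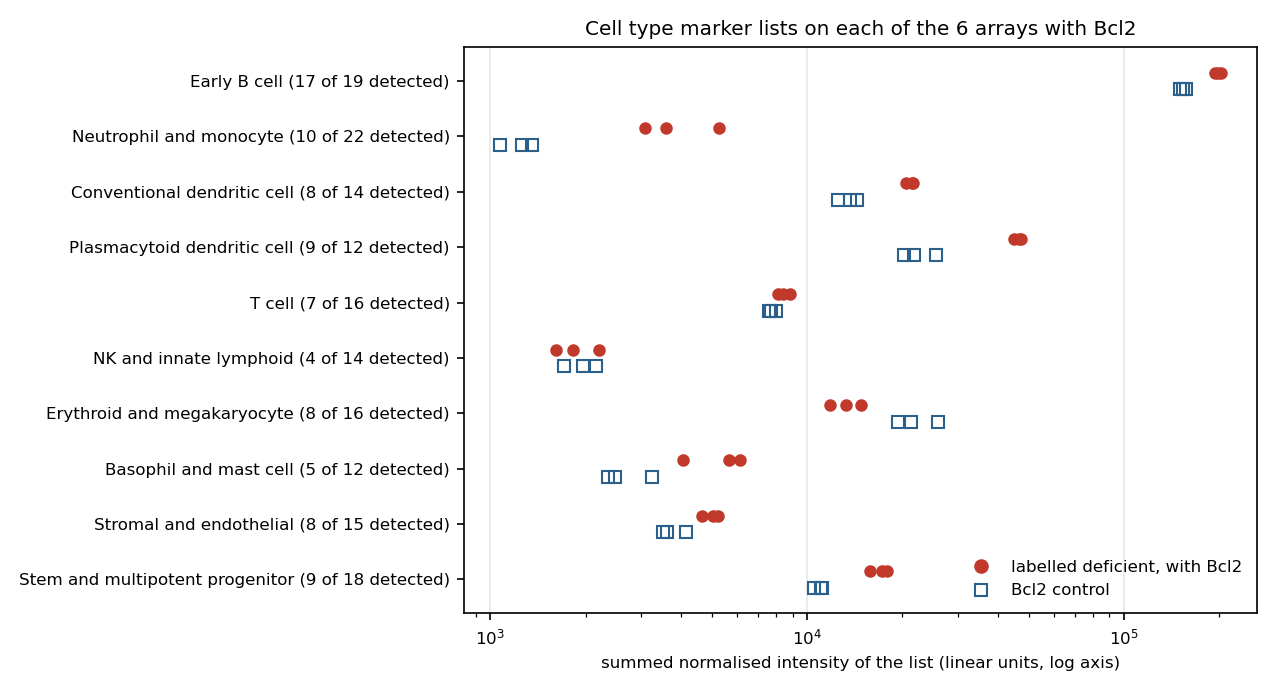
Summed normalised intensity (x axis, linear units on a log scale) of 10 lists of cell type markers on each of the 6 arrays, with the number of markers detected on at least 1 array in brackets, filled circles for labelled deficient arrays and open squares for Bcl2 controls. Early B cell markers are highest, at 149800 or more on every array, and neutrophil and monocyte markers are among the lowest, with all 3 labelled deficient arrays above all 3 controls.

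The difference was compared with the same contrast in cells without added Bcl2. There 3 of 9687 genes passed, which is 0.031%, and 581 had an unadjusted p under 0.05. The difference between the contrasts, the interaction, passed for 1047 genes (10.8%), of which 598 (6.17%) were lower and 449 (4.64%) higher with Bcl2. Of the 2426 genes that passed with Bcl2, 1014 also passed this interaction, all in the direction of the difference with Bcl2. The interaction is computed from that same difference, so the shared direction is not a separate result. Among genes that rose with Bcl2 the median difference without it was 0.09, and among those that fell it was -0.06. Sapcd2 differed by 0.08 ± 0.24 without Bcl2, an interaction of -4.42 ± 0.34 (adjusted p = 1.53e-05). Hey1 differed by -0.55 ± 0.34 without Bcl2, an interaction of 4.09 ± 0.49 (adjusted p = 0.000307). For Bcl11a the interaction was -2.66 ± 0.28 (adjusted p = 0.000129) on the brightest probe, from differences of opposite sign, which the other detected probe did not show. Tgfb3 was among the 3 genes that passed without Bcl2, beside Bcl11a and Ift43, a gene named after its values were seen, and its interaction did not pass (1.07 ± 0.33, adjusted p = 0.0641). The 12 control and labelled deficient arrays show where the groups stand. The median level of the kinesin list was 7.06 on the labelled deficient arrays with Bcl2, 10.38 on the Bcl2 controls, 11.11 on the labelled deficient arrays without Bcl2 and 11.25 on their controls. That of the p53 targets was 10.65, 9.49, 9.44 and 9.18 in the same order, and that of sterol genes 8.07, 9.66, 9.35 and 9.01. The interaction count was 2018 without the dim array, which belongs to the contrast without Bcl2. It was 116 within slide 1, 3412 within slide 2, 365 with median scaling (94 higher) and 0 with the deposited scores.

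**Figure D5:**
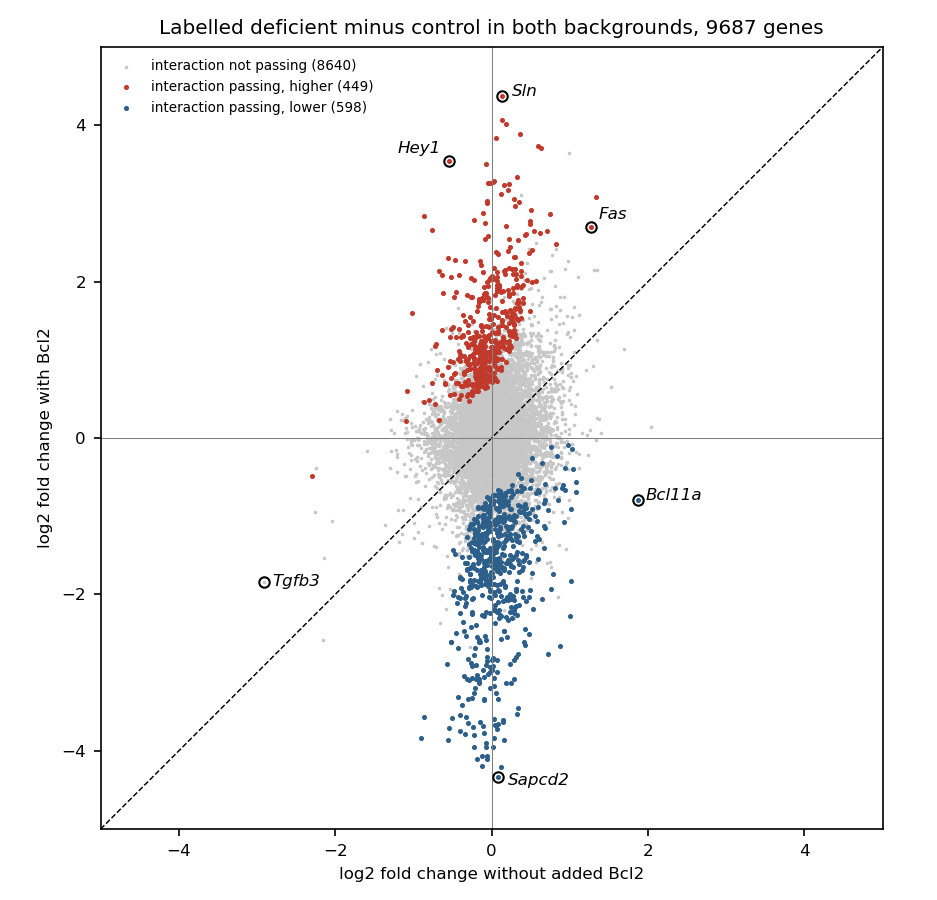
Log2 fold change with added Bcl2 (y axis) against that without it (x axis) for 9687 genes, coloured where the interaction passed. The dashed line marks equal changes. The coloured genes spread along the y axis, from -4.34 for Sapcd2 to 4.38 for Sln, while most of their values without Bcl2 lie nearer to 0, and Bcl11a lies at 1.87 without and -0.79 with Bcl2.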

How the data were processed

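RNA of cultured pro-B cells was hybridised to Illumina mouse bead arrays, per the labels' protocols after extraction with an RNeasy Plus Micro kit and labelling with biotin by an Ambion MessageAmp kit. The authors deposited bead intensity values (AVG_Signal, per the file headers) with no normalisation between arrays. Many of these values lie below 0, so a background had been subtracted. The deposited detection column is a fraction that rises with the signal, and 1 minus it was used as a detection p. The deposited series values are scores, found here to be the linear intensity of each probe centred and divided by its SD over all 15 arrays, and served as an alternative only. No label or header names the scanner software.

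The 12 pro-B arrays were background-corrected, quantile normalised and set to log2 intensity with neqc (offset 16) of limma 3.58.1 in R 4.3.3. Of 45263 probes, 17719 with a detection p under 0.05 on at least 3 arrays were kept. Of those 14897 had 1 gene symbol in the platform annotation and 2822 had several or none. The brightest kept probe stood for each of 9687 genes. A model of 4 group means was fitted over the 12 arrays, which share 1 estimate of the spread, and tested with limma's moderated statistics and Benjamini-Hochberg adjustment over all genes at 0.05. A gene below background on all 3 arrays of 1 group has only a bound. The labels speak of batches of cultured cells and not of separate mice, so p-values measure the spread between these samples, and the small number of arrays limits the precision. On simulated data with 9687 genes this comparison recovered 40% of changes of 1 and 93% of changes of 2 on the log2 scale, with 6 false calls. Same-numbered arrays of the 2 groups deviated together from their group means (correlations of 0.39, 0.331 and 0.229, against -0.257 to -0.0484 for unequal numbers), so the numbers were taken to pair the samples, and a fit with the replicate as a block was an alternative. Sequences are from RefSeq on GRCm38.p6, the first window where a gene had several (1628 genes). Python 3.11.15, pandas 2.3.3 and matplotlib 3.10.9 were used for motifs and figures.

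Genes were named by rule: the targeted genes, the 15 largest rises and falls among passing genes without overlap, up to 5 members of each of 48 lists by smallest p, cell type markers, the 6 highest and 6 lowest in the interaction, and the genes whose promoters are printed. The members and lists were chosen with earlier results of these data known. Of 1112 listed genes 86 had no named probe and 810 were measured.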

Additional observations from a re-analysis of the deposited data

Results flagged for a closer look

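The contrast of labelled deficient against control differed with and without added Bcl2 for 1047 genes by the interaction test. The 6 genes with the highest interaction were Sln (4.24), Hey1 (4.09), Espn (3.93), Grb10 (3.83), Lrrc15 (3.78) and Slc40a1 (3.70). Slc40a1, which encodes the iron exporter ferroportin, read 8.99, 8.25 and 7.79 against 5.35, 5.50 and 5.68 with Bcl2. It was below background on the 3 Bcl2 control arrays, so the size of its rise is only a bound. Without Bcl2 it differed by -0.86 ± 0.35. The 6 genes with the lowest interaction were Sapcd2 (-4.42), Pclaf (-4.32), Sgo1 (-4.07), Pbk (-4.05), Tk1 (-4.02) and Kif11 (-4.00), all genes of the cell cycle. Pclaf differed by 0.12 ± 0.29 without Bcl2, Sgo1 by -0.13 ± 0.24, Pbk by -0.06 ± 0.18 and Kif11 by -0.06 ± 0.26. Bcl11a itself gave an interaction of -2.66 on its brightest probe, which was lower with Bcl2 and higher without it on arrays labelled deficient. Its other detected probe differed by -0.92 with Bcl2 and by -0.25 without it, and neither passed. Single outlying arrays were not tested for, since each group has 3 arrays.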

How the results depend on the processing

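In all, 25 other settings were tried. Against 2426 passing genes, 1004 passed with median scaling (952 of them shared), 649 with the deposited scores (592 shared), 528 within slide 1 (502 shared), 4003 with the 6 arrays normalised alone, 4054 with only those 6 arrays in the fit, 4475 with array weights, and 4066 and 4069 without the dim array, normalised with or without it. With 1 of the 6 arrays left out, 1734 to 1982 passed. The other settings gave 2204 to 3603, the latter over all probes. The median of all genes was 0.04, with 0.11 under median scaling and 0.204 in the scores. Differences in the scores, here and below, are in SD units of linear intensity and not log2. The interaction count was 365 with median scaling, of which 94 were higher (449 of 1047 before), 2373 with weights, 2018 and 2006 without the dim array, 116 and 3412 within slides 1 and 2, 656 to 855 with 1 array left out and 0 in the scores. Over all lists 394 distinct genes passed, against 230 with median scaling, 174 within slide 1, 92 in the scores and 335 to 366 with 1 array left out. Counts of 1 or 2 members in a list changed by at most 1 with 1 array left out or without the dim array. The Bcl11a difference kept its sign and lost its call with median scaling (-0.70), the median of probes (-0.85), within slide 1 (-0.97), without labelled deficient replicate 1 (-0.65) and in the scores (-0.65), and it ran from -0.65 to -0.87 with 1 array left out. Genes that did not pass changed sign. Bcl2 gave -0.12 with weights, -0.21 within slide 1, -0.00164 in the scores, and -0.33 (without control replicate 3) to 0.25 (without control replicate 1) with 1 array left out. Vpreb1 gave -0.0034 with median scaling. Sox4 gave 0.084 with weights, 0.18 within slide 1, and -0.38 (without control replicate 2) to 0.27 (without control replicate 3) with 1 array left out. The causes were not tested. Of 209 passing named genes none changed sign, 36 kept their call under all settings, 145 lost it under 1 to 3 and 28 under more. The fit with the replicate as a block gave 2625 genes and 1189 in the interaction. Relative to their size it raised most the counts of lower synthetases (4 to 7), MHC class II genes (7 to 11) and pre-B cell receptor genes (3 to 5). Lower V(D)J genes went from 1 to 2, lower plasmacytoid markers from 0 to 1 and stem cell markers from 1 to 2. Other counts rose by smaller factors, among them interferon genes (15 to 19), p53 targets (16 to 20) and lower sterol genes (11 to 14). The block made 1 more named gene pass and changed no other call of those named. Of the 2422 genes with the lowest levels 2.89% fell and 9.62% rose, against 18.7% and 13.7% of the 2422 with the highest, and the part of signal over background in this was not tested.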

Other observations

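Calls were spread over the genome. On the autosomes and X, 9.09% (X) to 15.6% (chromosome 10) of tested genes rose and 10.3% (chromosomes 2 and 15) to 17.0% (chromosome 13) fell. Lower genes were more frequent among bright genes. In 4 equal groups of genes by mean level, from the lowest to the highest, 2.89%, 11.6%, 15.9% and 18.7% of genes fell, while 9.62%, 12.4%, 15.3% and 13.7% rose. Among the kept probes without a single gene symbol in the annotation, 545 of 2822 passed over all probes. Of 998 passing genes with another kept probe, all other probes had the same sign in 886 and another probe passed in the same direction in 495, while in 4 genes another probe passed in the opposite direction.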
